A study of Danio rerio with 18 samples.

Results

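The collagen genes were followed through eyes and brains of adult zebrafish. They were chosen by a rule on names, set with earlier results of these data known. Each row of the count table whose Ensembl identifier carries a symbol of col and a digit, in either case, was taken. This gave 56 of the 31624 genes in the table, of which 55 had at least 1 count in the 18 libraries and 1, a gene named col7a1l (ENSDARG00000093135), had none. Many of the symbols are written in capitals. Among them 10 genes share 5 symbols of the name table (col7a1l, COL10A1, COL2A1, col19a1 and COL12A1), so these are given with their identifiers. ENSDARG00000078322 is COL12A1 in that table and is called col12a1a here, after the study's own pairing, to set it apart from ENSDARG00000019601.

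Wild-type fish of the Tübingen strain were compared with opn4 dko fish of that strain, which carry frameshift deletions in the melanopsin genes opn4.1 and opn4xb in every cell. All fish were about 1.5 years old, were entrained to a light-dark regime under blue light and were dissected in the light phase. Each of the 6 groups (eye, anterior brain and posterior brain of both genotypes) had 3 libraries, and each library was made from the polyadenylated RNA of 3 fish pooled. The anterior brain held the telencephalon, the pineal and neighbouring forebrain, and the posterior brain held the hypothalamus, midbrain and hindbrain, without the pituitary.

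Collagens are proteins of the extracellular matrix in which 3 chains wind into a triple helix. Fibrillar collagens bear tension in the sclera and the stroma of the cornea, network-forming type IV collagen underlies basement membranes, and type VI forms beaded filaments. FACIT collagens lie on fibrils and link them to other molecules, and type XVII spans the membrane of epithelial cells at their attachment to the basement membrane. In the brain the matrix between neurons has little fibrillar collagen, and collagens are found mainly in vessels and meninges.

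Library totals ranged from 2186877 to 6946549 counts, and 3 counts in a library correspond to 0.419 to 1.47 CPM (counts scaled to library size, here with TMM over all libraries). The third wild-type eye library stood apart with the lowest total and 14577 genes detected, against 17604 to 20037 in the others. The labelled tissues were borne out by their markers: a photoreceptor list summed to 33230 to 52950 CPM in eyes and at most 194 CPM in brains, a lens list to 9087 to 12910 CPM and at most 9.18 CPM, and a neuron list to 2542 to 3019 CPM in eyes and 9156 to 10120 CPM in brains. A frameshift deletion need not lower the transcript. opn4.1 had 819 to 1752 counts in wild-type eyes and 1650 to 1844 in opn4 dko eyes, and opn4xb had 45 to 66 and 33 to 47. Posterior brain libraries had 5 to 10 wild-type and 0 to 1 opn4 dko counts of opn4.1, and 0 to 8 and 0 to 1 counts of opn4xb. In the anterior brain opn4.1 had 0 to 31 and 16 to 19. These counts do not check the genotype labels. All 6 eye libraries were sequenced in a lane of their own, so eye and brain cannot be told apart from the lane. In bulk tissue, fewer cells of a type and less RNA per cell cannot be told apart either.

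The eye carried the bulk of the collagen transcripts. Collagen genes took 0.25% to 0.555% of all counts in the 6 eye libraries (median 0.361%), 0.0459% to 0.0576% in the anterior brain (median 0.0482%) and 0.05% to 0.0595% in the posterior brain (median 0.054%). The lowest eye library was thus above the highest brain library. The type I chains col1a1a, COL1A1 and COL1A2 together made up 36.7% to 51.9% of the collagen counts in eyes, 4.45% to 8.19% in the anterior brain and 4% to 8.08% in the posterior brain. Counts covered whole gene bodies, so a share of counts rises with the length of a gene, and only the same share may be compared between tissues.

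**Figure D1:**
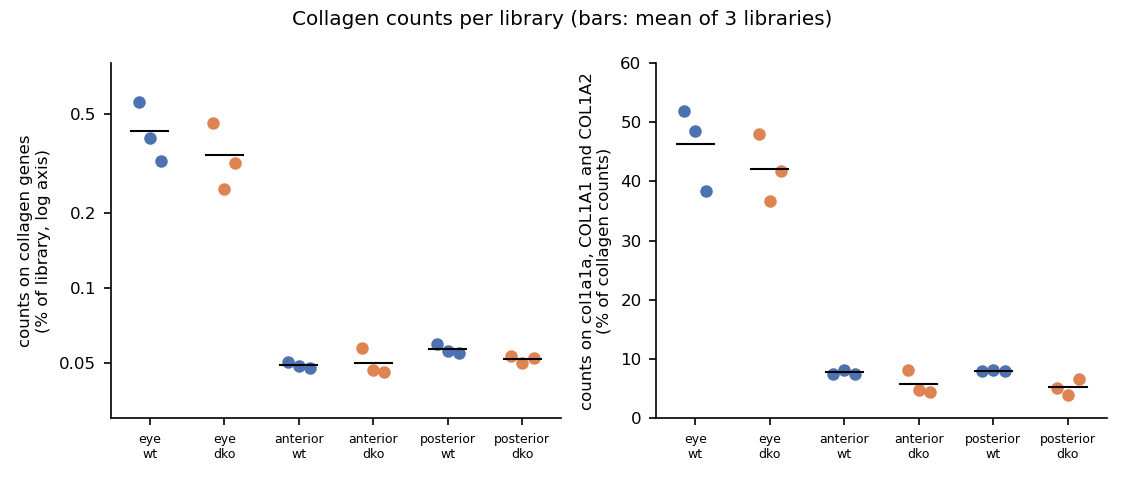
Left: counts on the 56 collagen genes as a percentage of the library (log axis). Right: counts on the 3 type I chain genes as a percentage of the collagen counts. Points are libraries, bars are means of 3 libraries, wt is wild-type and dko is opn4 dko. Both shares are higher in the 6 eye libraries than in any of the 12 brain libraries.

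Of the 51 collagens that passed the filter on low counts, 42 were higher in the eye and 3 were higher in the brain at an FDR below 0.05 (edgeR quasi-likelihood test of the mean of the eye groups against the mean of the 4 brain groups). Over all 18630 genes tested, 29.7% were higher in the eye and 27.5% in the brain, or 57.2% in either direction. The median log2 fold change of the collagens was 3.08, against -0.0036 for all genes. In 32 collagens every eye library was above every brain library, and none showed the reverse. Across all genes 12.5% had all eye libraries above all brain libraries and 11.4% the reverse. The remaining 6 collagens were not called: col6a4a, col14a1b, col23a1b, COL8A1, col5a3a and col7a1l (ENSDARG00000069692). Filtered tissue by tissue, col17a1a, col17a1b, col4a3, COL4A4, col9a1b, COL9A1, COL11A2, col28a1a, col5a3b, col21a1, COL12A1 (ENSDARG00000019601) and both COL10A1 genes passed in the eye alone. They entered this test through the eye, where they are high, so the filter favoured their direction. The shares of all genes came through the same filter. Scaling to actb1 lowered the median of all genes to -0.954, and of the collagens 35 were then higher in the eye and 4 in the brain, with a median of 2.12.

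**Figure D2:**
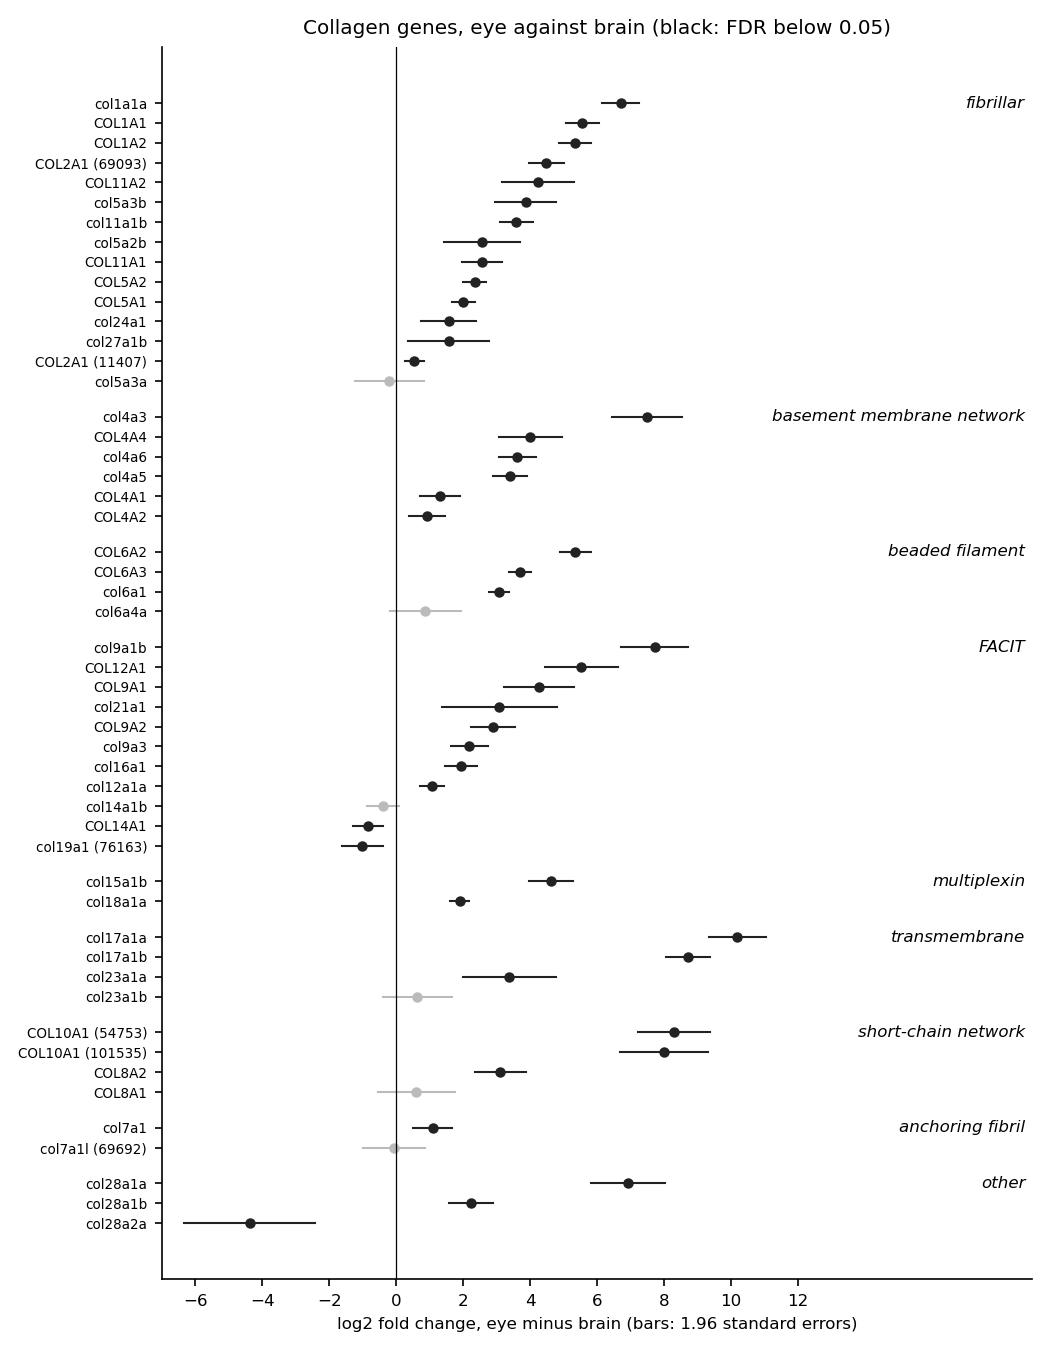
Log2 fold change of the 51 tested collagens in the eye against the brain, by structural class, with bars for the confidence interval. Black points passed an FDR of 0.05 and grey points did not. All tested classes except the anchoring fibril collagens have most of their members to the right of 0, and col28a2a, COL14A1 and col19a1 (ENSDARG00000076163) are the called genes to the left. Numbers in brackets beside a name end its identifier.

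Fibrillar collagens, which assemble into banded fibrils, were higher in the eye in 14 of 15 genes. The chains of type I, the main fibrillar collagen of the stroma of the cornea, had the 3 widest differences in this class. In the 6 eye libraries col1a1a (ENSDARG00000012405) ranged from 387 to 1303 CPM with a median of 750 CPM. In the 12 brain libraries it ranged from 1.97 to 12.2 CPM with a median of 7.89 CPM. The log2 fold change was 6.71 (SE 0.28, FDR 1.9e-15).

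COL1A1 (ENSDARG00000035809), a second gene for the alpha 1 chain, ranged from 304 to 883 CPM in eyes (median 556 CPM) and from 2.96 to 21 CPM in brains (median 13.6 CPM). COL1A2 (ENSDARG00000020007), the alpha 2 chain, had 317 to 846 CPM in eyes (median 516 CPM) and 6.32 to 25.6 CPM in brains (median 12.1 CPM). Eye and brain did not overlap in any of the 3 genes. The log2 fold change was 5.57 (SE 0.25) for COL1A1 and 5.34 (SE 0.24) for COL1A2.

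The 3 type I chains varied alike between eye libraries. Each had its highest level in replicate 1 of 1 genotype, and opn4 dko replicate 2 was the lowest library for all of them. This was not particular to type I. That library was also the lowest eye library for col4a5, col4a6, COL6A2 and COL6A3, whereas col17a1a and col17a1b were lowest in wild-type replicate 3. The share of all collagens was also lowest in opn4 dko replicate 2 (0.25%), and highest in replicate 1 of each genotype (0.555% and 0.459%). The count of the alpha 1 genes over that of COL1A2 stayed between 2.01 and 3.02 in eyes (median 2.53). This ratio ran from 0.359 to 5 in anterior (median 1.62) and from 1.12 to 1.91 in posterior libraries (median 1.24), where the counts of each chain were low.

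The pair of genes named COL2A1, which encode the fibrillar collagen of cartilage and vitreous, differed in how far brain levels lay below eye levels. COL2A1 (ENSDARG00000069093) ranged from 68.5 to 136 CPM in eyes (median 82 CPM) and from 1.09 to 8.35 CPM in brains (median 3.71 CPM), without overlap. COL2A1 (ENSDARG00000011407) ranged from 70.5 to 128 CPM in eyes (median 117 CPM) and from 49 to 120 CPM in brains (median 76.5 CPM), and the tissues overlapped. The log2 fold change was 4.49 (SE 0.27, FDR 8.7e-13) for the former and 0.54 (SE 0.14, FDR 0.0022) for the latter. Scaling to actb1 removed the call of the latter. The summed level of a bone and cartilage list of 10 genes was 64.0 to 155 CPM in eyes and 87.6 to 150 CPM in brains. Of its 8 tested genes 4 were higher in the eye and 2 lower, against 29.7% and 27.5% of all genes. The part of such cells in the COL2A1 levels was not tested.

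The other fibrillar genes were the chains of types V, XI, XXIV and XXVII. COL5A1 and COL5A2, whose products join type I fibrils, had log2 fold changes of 2.01 and 2.35, and col11a1b, a chain that joins type II fibrils, had 3.59. The exception in this class was col5a3a, at -0.20 (SE 0.52, FDR 0.78).

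All 6 type IV genes, which encode the network of basement membranes, were higher in the eye, by very different amounts. COL4A1 and COL4A2, the chains found in basement membranes throughout the body, had the smallest changes, at 1.32 (SE 0.30) and 0.92 (SE 0.27). COL4A1 ranged from 9.78 to 51.5 CPM in eyes and from 4.59 to 26.9 CPM in brains, and COL4A2 from 14.3 to 36.1 CPM and from 7.21 to 31 CPM. Both therefore overlapped between eye and brain, and neither call was kept with scaling to actb1. COL4A1 was not called in wild-type libraries alone, and COL4A2 was not called in opn4 dko libraries alone.

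The chains col4a5 and col4a6 were higher in the eye by 3.41 (SE 0.25) and 3.62 (SE 0.28) on the log2 scale. col4a5 had 36.1 to 130 CPM in eyes and 3.29 to 21.1 CPM in brains, and col4a6 had 37.6 to 133 CPM and 1.62 to 27.6 CPM. COL4A4 had 10.4 to 34.5 CPM in eyes and 0 to 5.25 CPM in brains, at a log2 fold change of 4.01 (SE 0.48). The chain with the widest difference was col4a3, with 20.5 to 71.9 CPM in eyes and at most 1.4 CPM in brains, where 7 of 12 libraries had no count. In RefSeq (assembly GRCz12tu) col4a1 and col4a2, col4a3 and col4a4, and col4a5 and col4a6 are neighbours. The fold changes were close within the first and the last of these pairs and further apart in col4a3 and COL4A4.

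Among the type VI chains, which form beaded filaments beside cells, COL6A2, COL6A3 and col6a1 were higher in the eye by 5.36 (SE 0.24), 3.70 (SE 0.16) and 3.08 (SE 0.16). COL6A2 ranged from 64.3 to 135 CPM in eyes and from 0.84 to 7.18 CPM in brains. COL6A3 ranged from 78.4 to 154 CPM and from 5.69 to 13.2 CPM, and col6a1 from 132 to 190 CPM and from 5.24 to 45.6 CPM. None of these 3 overlapped, whereas col6a4a had 0.834 to 12.9 CPM in eyes and 0.764 to 8.74 CPM in brains and was not called (FDR 0.17).

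The transmembrane collagens held the largest differences of all. Type XVII collagen anchors epithelial cells of skin and cornea to their basement membrane. col17a1a (ENSDARG00000069415) had 76.3 to 174 CPM in eyes (median 136 CPM), while 10 of the 12 brain libraries had no count and the others had 5 and 8 counts. Its pooled rate was 541 times as high in the eye as in the brain. col17a1b (ENSDARG00000079011) had 155 to 290 CPM in eyes (median 189 CPM) and at most 1.46 CPM in brains, where 6 libraries had no count, and its pooled rate was 373 times as high. The fitted log2 fold changes were 10.19 and 8.72. In 7 of the called collagens, col17a1a among them, a brain group had no count, and the fitted fold then rests on the small count added in the fit. The skin and corneal epithelium list summed to 6427 to 12390 CPM in eyes and 27.3 to 116 CPM in brains. All 7 of its tested genes were higher in the eye, against 29.7% of all genes. The part of these cells in the difference was not tested.

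The short-chain collagens of type X, known from hypertrophic cartilage, and of type VIII, known from the membrane under the corneal endothelium, included 3 genes higher in the eye. COL10A1 (ENSDARG00000054753) had 26.7 to 57.6 CPM in eyes and at most 1.21 CPM in brains, and COL10A1 (ENSDARG00000101535) had 7.92 to 51.9 CPM and at most 2.15 CPM. Both had no count in 9 of the 12 brain libraries. COL8A2 was higher by 3.11 (SE 0.39), and COL8A1 at 0.61 (SE 0.59, FDR 0.4) was not called.

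Of the 11 tested FACIT genes 8 were higher in the eye and 2 higher in the brain, against 29.7% and 27.5% of all genes. The chains of type IX, a partner of type II fibrils, were all higher in the eye, from 2.19 (SE 0.28) for col9a3 to 7.73 (SE 0.51) for col9a1b. col9a1b had 18.6 to 53.1 CPM in eyes, at most 1.35 CPM in the anterior brain and no count in the 6 posterior brain libraries. COL12A1 (ENSDARG00000019601) had 21.3 to 74.1 CPM in eyes and at most 3.38 CPM in brains. The other type XII gene, col12a1a (ENSDARG00000078322), had 55.9 to 74.8 CPM in eyes and 11.9 to 66.1 CPM in brains, with a log2 fold change of 1.07 (SE 0.18) that was lost with scaling to actb1.

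COL14A1 and col19a1 (ENSDARG00000076163) were the FACIT genes higher in the brain. COL14A1, whose product binds the surface of type I fibrils, ranged from 7.34 to 31.9 CPM in eyes (median 24.5 CPM) and from 30.9 to 59.1 CPM in brains (median 39.6 CPM), and overlapped only at the edge. Its log2 fold change was -0.84 (SE 0.23, FDR 0.0031). In col19a1 eyes had 3.22 to 10.3 CPM and brains 7.18 to 22.9 CPM, and the change was -1.003 (SE 0.32, FDR 0.0093). Neither was called in the wild-type libraries alone. col19a1 was not called in the opn4 dko libraries alone either (log2 -0.81, FDR 0.067). The third brain-higher gene, col28a2a, had 0 to 7 counts in eye libraries and 4 to 38 counts in brain libraries, for a log2 fold change of -4.37 (SE 0.998, FDR 7.8e-04). All 3 wild-type eye libraries had no count, so this fold also rests on the small count added in the fit. The pooled rate in the eye was 0.143 times that in the brain, and in opn4 dko libraries alone the log2 fold change was -1.684 (FDR 0.13) and was not called.

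Both tested multiplexins, the basement membrane collagens that include the precursor of endostatin, were higher in the eye. col18a1a had 103 to 176 CPM in eyes and 15.8 to 53.4 CPM in brains, and col15a1b had 104 to 139 CPM and 0 to 12.6 CPM. Of the anchoring fibril collagens col7a1 was higher in the eye by 1.09 (SE 0.29), and col7a1l (ENSDARG00000069692) was at -0.06 (SE 0.47). The call of col7a1 was lost with scaling to actb1 and in wild-type libraries alone.

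**Figure D3:**
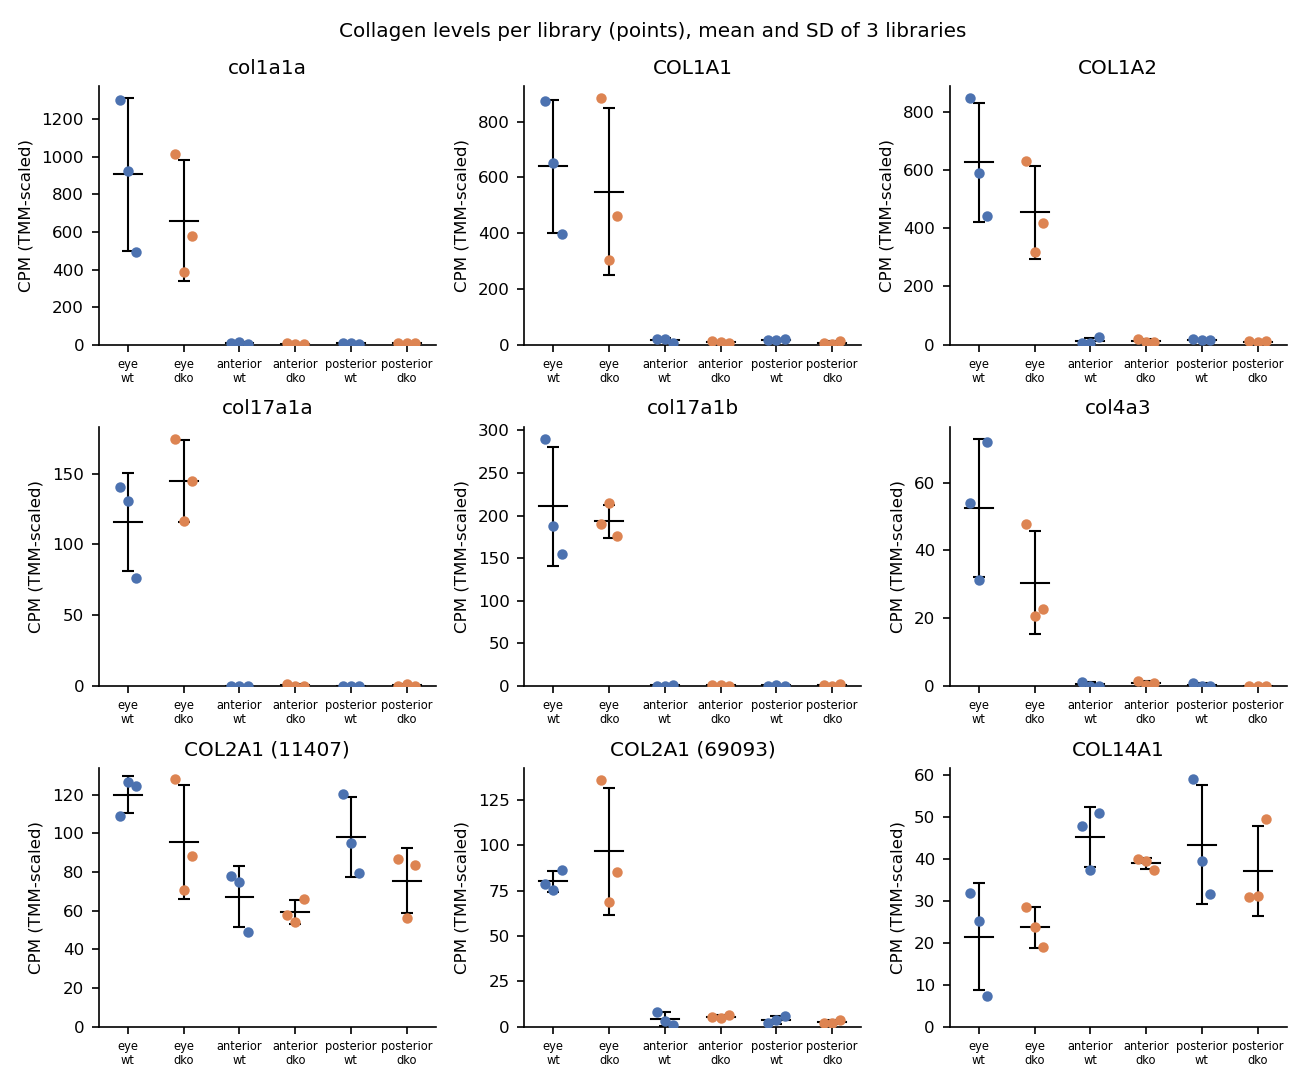
Levels of 9 collagens in CPM in each library (points), with the mean and SD of 3 libraries per group; numbers in brackets are the ends of identifiers. The type I chains, col17a1a, col17a1b and col4a3 lie near 0 in brains, whereas COL2A1 (ENSDARG00000011407) is high in both tissues and COL14A1 is higher in brains.

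Collagens differed in how far they varied among the 6 eye libraries. Over the 42 genes with at least 10 counts in every eye library, the highest library had a median of 2.76 times the lowest. col12a1a and col15a1b varied least, at 1.34 times each, and COL10A1 (ENSDARG00000101535) varied most, at 6.56 times. The type I chains varied by 2.67 to 3.37 times. Of the 45 calls between eye and brain, 44 were made whichever library was left out, the third wild-type eye library included, and the exception was col27a1b (FDR 0.036).

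Genes that make, assemble and bind collagen were counted beside the collagens. Of 86 tested genes in 6 lists, 54 were higher in the eye and 3 were lower, with a median log2 fold change of 1.34. Over all genes tested 29.7% were higher in the eye and 27.5% in the brain. Proteoglycans and matrix proteins that bind collagen were higher in 18 of 20 genes and lower in none, among them KERA at 10.91 (SE 0.49) and LUM at 5.85 (SE 0.89), the corneal proteoglycans keratocan and lumican, and DCN (decorin) at 3.70 (SE 0.14). Genes of propeptide removal and cross-linking were higher in 11 of 18, with the C-proteinase enhancer pcolcea at 4.34 (SE 0.29) and the cross-linking enzyme LOX at 2.78 (SE 0.85). Folding and secretion genes were higher in 6 of 11, including both genes named SERPINH1, the collagen chaperone, at 2.43 (SE 0.55) and 3.06 (SE 0.37).

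Of the hydroxylation and glycosylation genes 6 of 17 were higher and 1, P4HA3, was lower at -2.59 (SE 0.89). The share that was higher is near the 29.7% of all genes. The median of the hydroxylation and glycosylation genes was 0.606, and that of the folding and secretion genes was 0.362. P4HB and PPIB, general enzymes of the endoplasmic reticulum, stood at 0.23 (SE 0.12) and -0.13 (SE 0.12) and were not called. Receptors were higher in 6 of 10 genes and enzymes and inhibitors of degradation in 7 of 10, with 2 lower. A fibroblast and meninges list summed to 1057 to 1597 CPM in eyes and 200 to 391 CPM in brains, with 10 of 12 tested genes higher in the eye, and an endothelium and pericyte list to 535 to 730 CPM and 244 to 337 CPM, with 5 of 11 higher and 2 lower. Across all genes 57.2% were called in either direction, near the share of the endothelium and pericyte list. The part of the cells of both lists in the collagen levels was not tested.

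In the anterior brain 6 collagens were higher and in the posterior brain 9, of 51 tested in the fit of all libraries. Across all genes 14.5% were higher in the anterior and 14.2% in the posterior brain, so that 15 of 51 collagens is near the 28.6% of all genes called. The median log2 fold change of the collagens was -0.13. Replicates 2 and 3 of the brain parts were sequenced in different lanes and replicate 1 of both in a shared lane.

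The clearest differences were in col6a1 and col14a1b. col6a1, the alpha 1 chain of type VI, ranged from 23.8 to 45.6 CPM in the anterior brain (median 31.6 CPM) and from 5.24 to 18.5 CPM in the posterior brain (median 8.68 CPM). The parts did not overlap and the log2 fold change was 1.76 (SE 0.20, FDR 4.8e-07). COL6A2 and COL6A3, the chains that assemble with it, were at 0.70 (SE 0.36, FDR 0.15) and -0.13 (SE 0.21, FDR 0.72).

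col14a1b, a FACIT gene, ranged from 8.71 to 16 CPM in the anterior brain (median 12.9 CPM) and from 39.8 to 56 CPM in the posterior brain (median 49.3 CPM), again without overlap. The log2 fold change was -1.97 (SE 0.28, FDR 7.9e-06). Its level in eyes was 5.38 to 29.3 CPM, nearer to that of the anterior brain. COL14A1, of the same type, had 37.3 to 50.9 CPM and 30.9 to 59.1 CPM and was at 0.06 (SE 0.25).

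Among the basement membrane collagens col18a1a was higher in the anterior brain by 0.82 (SE 0.17, FDR 8.0e-04), with 35.7 to 53.4 CPM against 15.8 to 33.8 CPM and no overlap. These 3 were the collagens whose brain parts did not overlap, against 19.8% of all genes. col4a6 and col4a5 were higher in the anterior brain by 1.44 (SE 0.37) and 0.92 (SE 0.33), while COL4A1 and COL4A2 stood at 0.55 (SE 0.37) and -0.31 (SE 0.32) and were not called. col28a1b was also higher in the anterior brain, by 1.18 (SE 0.43).

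The other genes higher in the posterior brain were COL5A2 at -0.92 (SE 0.22), COL2A1 (ENSDARG00000011407) at -0.45 (SE 0.17), col15a1b at -1.54 (SE 0.46), col6a4a at -2.28 (SE 0.66), col7a1l (ENSDARG00000069692) at -1.47 (SE 0.53), col23a1a at -2.98 (SE 0.99) and col21a1 at -3.37 (SE 1.23). COL5A2 had 8.54 to 18.2 CPM in the anterior and 16.1 to 33.3 CPM in the posterior brain. Summed over libraries, col23a1a had 20 counts in the anterior and 66 in the posterior brain, with 0, 0 and 1 in the anterior opn4 dko libraries. col21a1 had 13 and 45, with no count in the anterior wild-type libraries, so its fold rests in part on the small count added in the fit. col21a1 had at most 24 counts in a brain library, and without posterior brain wild-type replicate 2 it stood at -0.52. Filtered tissue by tissue, col21a1 passed the filter on low counts in the eye and in neither brain part.

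In 2 called genes a brain part was at 0, so that the difference is a bound against 3 counts over the part. col9a1b had 24 counts in the anterior brain and was at least 6.71-fold higher there. COL10A1 (ENSDARG00000101535) had 13 counts in the posterior brain and was at least 5.17-fold higher there. Both genes passed the filter on low counts in the eye and in neither brain part.

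Of the 15 calls, 8 were made whichever library was left out: col6a1, col14a1b, col18a1a, col9a1b, COL5A2, col4a6, col6a4a and col15a1b. These 8 alone remained without anterior brain opn4 dko replicate 2, 9 were called without anterior brain wild-type replicate 3, and 17 collagens were called without eye wild-type replicate 3. Within the shared lane 7 of the 15 were called, col6a1, col14a1b, col18a1a, col4a5, col4a6, col6a4a and COL2A1 (ENSDARG00000011407). In wild-type libraries alone 3 of the 15 were called, and in opn4 dko libraries alone 8. An oligodendrocyte list summed to 441 to 636 CPM in the anterior and 7280 to 10230 CPM in the posterior brain, and the fibroblast list to 200 to 321 CPM and 275 to 391 CPM. The part of these cells was not tested.

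**Figure D4:**
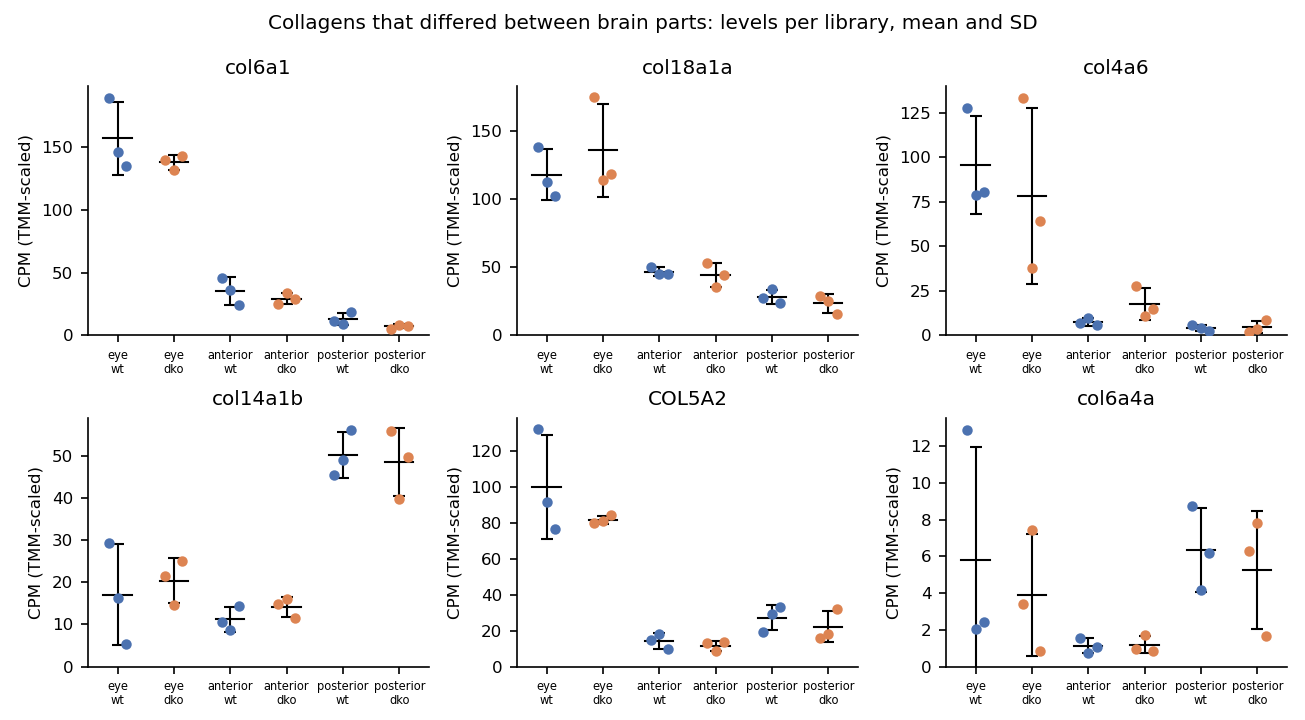
Levels in CPM of 6 collagens that differed between the brain parts, in each library (points) of all tissues, with the mean and SD of 3 libraries per group. The brain parts do not overlap in col6a1, col18a1a and col14a1b, and they overlap in col4a6, COL5A2 and col6a4a.

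The comparison asked whether loss of both melanopsins changed collagen transcripts in any tissue. In the anterior brain 0 of 34 tested collagens passed an FDR of 0.05 with edgeR's quasi-likelihood test, where 1.05% of all genes did. In the posterior brain 0 of 37 passed (0.357% of all genes) and in the eye 0 of 50 (0.0254% of all genes). At an unadjusted p below 0.05 there were 5, 2 and 1 collagens (14.7%, 5.41% and 2% of those tested), against 9.03%, 9.74% and 4.28% of all genes. DESeq2 and edgeR's exact test each called 1 collagen of the anterior brain, col12a1a, and 0 elsewhere. The genotypes did not overlap in 5, 7 and 2 of the tested collagens, and in 14.6%, 15.6% and 12.8% of all genes.

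The collagens' median log2 fold change, opn4 dko against wild-type, was -0.11 for anterior brain, -0.22 for posterior brain and -0.26 for eye, and that of all genes was -0.0032, 0.0059 and 0.032. With scaling to actb1 the collagens stood at -0.181, -0.561 and -0.54 and all genes at -0.0538, -0.339 and -0.309. Of the collagens 15 of 34, 12 of 37 and 16 of 50 lay above 0, against 49.5%, 50.6% and 53% of all genes. As a share of the library, collagen counts were 0.426% ± 0.118 (SD, n = 3) in wild-type eyes and 0.342% ± 0.107 in opn4 dko eyes (two-sided exact permutation test, p = 0.4). They were 0.0489% ± 0.00143 and 0.0502% ± 0.00646 in the anterior brain (exact p = 1), and 0.0568% ± 0.00246 and 0.052% ± 0.00175 in the posterior brain (exact p = 0.1). With 3 libraries against 3, 0.1 is the smallest p this test can give.

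col12a1a (ENSDARG00000078322), a FACIT chain of type XII that lies on type I fibrils, had the lowest p in both brain parts. In the anterior brain its level was 22.8, 11.9 and 21 CPM in wild-type and 46, 35.5 and 36.7 CPM in opn4 dko libraries. The genotypes did not overlap, and the lowest value was that of wild-type replicate 2. The log2 fold change was 1.09 (SE 0.27), with an unadjusted p of 6.1e-04 and an FDR of 0.0546 in edgeR's test.

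In the posterior brain col12a1a had 33.4, 14.6 and 28.8 CPM in wild-type and 66.1, 38.2 and 40 CPM in opn4 dko libraries, without overlap. The log2 fold change was 0.92 (SE 0.29, FDR 0.24). In the eye it had 66, 55.9 and 58.7 CPM and 74.8, 59.4 and 72 CPM, which overlap, and the log2 fold change was 0.16 with an interval of -0.28 to 0.60. In every tissue and both genotypes replicate 1 was the highest and replicate 2 the lowest. The tissues may come from the same fish, so the posterior brain may not be a separate observation. The effect in the anterior brain exceeded that in the eye by 0.90 on the log2 scale (SE 0.43, FDR 0.83) and that in the posterior brain by 0.17 (SE 0.43, FDR 1), and neither difference passed the interaction test. No collagen passed an interaction test between any of the tissues (0 of 51 each, against 0.344%, 0.00537% and 0% of all genes for the anterior brain against the eye, the anterior against the posterior brain and the posterior brain against the eye). At an unadjusted p below 0.05 these tests gave 4, 2 and 2 collagens, and 5.91%, 3% and 5.86% of all genes.

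The adjusted p of col12a1a in the anterior brain lay close to the threshold and went to either side of it with the processing, from 0.00356 to 0.301 over 18 alternatives, 8 of which called it. With the sequencing lane as a block its FDR was 0.037. With 1 library left out its FDR was 0.0389 to 0.278, and only the fit without wild-type replicate 1 called it. Without wild-type replicate 2 its log2 fold change fell to 0.84. In the posterior brain the FDR ranged from 0.0283 to 0.635, with 1 of 18 below 0.05.

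Other tissue markers moved with genotype in the same libraries. In the anterior brain a pineal list summed to 3.82 to 5.87 CPM in wild-type and 49.2 to 117 CPM in opn4 dko. The list held 5 symbols, of which 3 matched a gene of the count table. Of these 3 genes, all tested, 2 were called, where 1.05% of all genes were. A photoreceptor list was at 1.53 to 6.99 CPM and 107 to 194 CPM, with 4 of its 8 genes at 0 in wild-type and 3 in opn4 dko, and a pigment epithelium list at 42 to 57.5 CPM and 90.7 to 167 CPM. Of the 6 tested genes of the last list 1 was called, RPE65 (ENSDARG00000007480), and the list's median log2 fold change was 0.062. Without that gene its sums were 30 to 38.9 CPM in wild-type and 33.2 to 43.3 CPM in opn4 dko. The fibroblast and meninges list had 200 to 242 CPM and 251 to 321 CPM in the anterior brain, and 275 to 306 CPM and 327 to 391 CPM in the posterior brain, and 1 of its 9 tested genes, VIM (ENSDARG00000010008), was called in the anterior brain (log2 0.78, SE 0.17, FDR 0.02). The median of the list there was -0.059, and without that gene its sums were 114 to 132 CPM in wild-type and 104 to 134 CPM in opn4 dko. The posterior brain sums without it were 162 to 173 CPM and 176 to 197 CPM. The photoreceptor list there was at 0.84 to 3.34 CPM in wild-type and 6.5 to 65.4 CPM in opn4 dko. Its 1 tested gene was called, where 0.357% of all genes tested in that tissue were. Of its 8 genes 6 were at 0 in wild-type and 4 in opn4 dko. The pineal list there was at 2.6 to 10 CPM and 5.06 to 45.2 CPM, which overlap, and its 1 tested gene was not called. The part of these cells in the level of col12a1a was not tested.

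Further collagens of the anterior brain did not pass the adjusted test. COL8A1, a short-chain collagen, had 5.19, 6.42 and 0 CPM in wild-type and 19.4, 14 and 10.5 CPM in opn4 dko libraries (log2 1.88, SE 0.64, FDR 0.26), and was called with scaling to actb1 and with no filter on low counts. col4a6 had 6.99, 9.94 and 5.68 CPM against 27.6, 10.5 and 14.5 CPM (1.21, SE 0.39, FDR 0.23). Here opn4 dko replicate 1 stood well above the rest, and without it the change was 0.71. Lower values in opn4 dko were found for col5a3a, a type V chain, with 6.77, 9.63 and 16.8 CPM against 4.33, 3.94 and 5.71 CPM (-1.26, SE 0.47, FDR 0.35), and for col7a1 (-0.89, SE 0.41, FDR 0.52).

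In the posterior brain the type I chains COL1A1 and COL1A2 had their lowest values in opn4 dko libraries. COL1A1 was at 15.4, 17.9 and 19.3 CPM in wild-type and at 7.04, 2.96 and 13.3 CPM in opn4 dko (-1.16, SE 0.45, FDR 0.37). COL1A2 was at 21.1, 14.7 and 17.4 CPM and at 12.6, 8.61 and 11.5 CPM (-0.69, SE 0.35, FDR 0.54). Neither overlapped between genotypes, while col1a1a, with 9, 10.1 and 3.64 CPM against 7.22, 6.73 and 8.55 CPM, did. As a share of the collagen counts the 3 type I chains had a wild-type mean of 8% ± 0.0816 and an opn4 dko mean of 5.28% ± 1.34 (SD, n = 3, exact permutation p = 0.1, the smallest possible). col7a1l (ENSDARG00000069692) had 3.86, 10.2 and 8.4 CPM against 10.7, 15.1 and 16.9 CPM (0.91, SE 0.44, FDR 0.52).

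In the eye COL5A1, a chain that nucleates type I fibrils, had the lowest p, at 131, 113 and 66.5 CPM in wild-type and 81.4, 56.6 and 72 CPM in opn4 dko (-0.59, SE 0.26, FDR 0.99), and the genotypes overlapped. col28a1b was at -1.04 (SE 0.48), and of the genes above 0, col9a3 and COL9A1 were at 0.46 (SE 0.33) and 0.59 (SE 0.45). The type I chains lay between -0.49 and -0.25 with intervals that include 0, for example -1.19 to 0.22 for col1a1a.

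**Figure D5:**
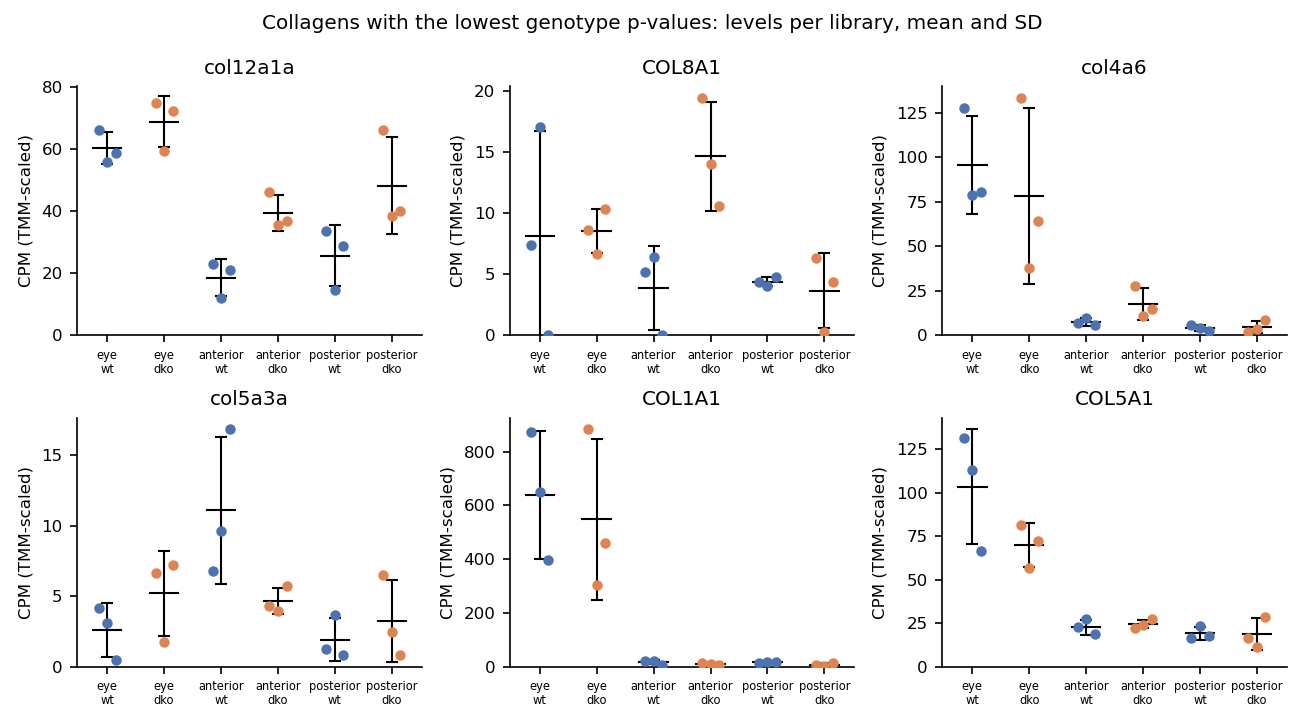
Levels in CPM of 6 collagens with low genotype p-values in 1 or more tissues, in each library (points) with the mean and SD of 3 libraries per group. col12a1a is above wild-type in all opn4 dko libraries of both brain parts, which may come from the same fish, and overlaps in the eye. The other genes separate the genotypes in at most 1 tissue.

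Among genes that make and bind collagen, 2 of 63 tested in the anterior brain were higher in opn4 dko and none was lower, where 1.05% of all genes were called. The counts were 0 of 65 in the posterior brain (0.357% of all genes) and 0 of 81 in the eye (0.0254%). These are calls of the quasi-likelihood test, and the lists were not run through the exact test here. With edgeR's exact test the paper reported creb3l1, of the folding and secretion list, as lower in the opn4 dko anterior brain. It listed the hydroxylation gene p3h1 as higher in the opn4 dko posterior brain. No gene of these lists passed an interaction test between tissues. Of the 2 genes called here in the anterior brain, 1 was BMP1 (ENSDARG00000028053), the procollagen C-proteinase. It had 22.8, 30 and 24.3 CPM in wild-type and 124, 90 and 43.9 CPM in opn4 dko (log2 1.73, SE 0.27, FDR 0.0013). The other was KERA, with 0 CPM in the 3 wild-type and 9.21, 3.06 and 7.25 CPM in the opn4 dko libraries, a gene that had 172 to 778 CPM in eyes. KERA thus passed the filter on low counts in the anterior brain through the opn4 dko libraries alone. Of the 2 called genes only BMP1 had counts in both genotypes. In these libraries col17a1a had no count in wild-type and 8 counts in 1 of 3 opn4 dko libraries, and the type I chains were 7.49% to 8.19% of collagen counts in wild-type and 4.45% to 8.12% in opn4 dko.

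The collagens that the filter kept out of every main test had few counts. Summed over libraries, col18a1b had 23 counts in eyes, 21 in anterior and 25 in posterior brains, and col19a1 (ENSDARG00000096073) had 9 in eyes, 0 in anterior and 15 in posterior brains. col28a2b had 15 counts in 3 eye libraries and 0 in brains, and col8a1a had 4 counts in 1 anterior brain library. The genotype tests left out more of the 56 genes, since each tissue was filtered on its own. The 21 anterior brain counts of col18a1b were all in wild-type libraries (2, 11 and 8), with 0 in each opn4 dko library, and COL9A1, which the anterior brain filter left out, had 0, 3 and 5 wild-type counts against 25, 7 and 10 in opn4 dko. The main genotype test of the anterior brain thus covered neither gene. With no filter on low counts all 52 collagens with a count there were tested, and neither gene was called.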

How the data were processed

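The authors counted single reads of 100 bp on polyadenylated RNA over whole gene bodies, introns included, with strand used and reads of mapping quality under 20 left out (GRCz10, Ensembl release 86). Values are raw counts per gene as deposited, made with featureCounts, with HISAT in the deposited commands and NextGenMap in the study's methods as the mapper. The submitters' processing notes also name edgeR 3.9.

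Genotypes were compared here within each tissue with edgeR 4.0.16 (R 4.3.3): filterByExpr (minimum count 10, minimum total 15), TMM and quasi-likelihood F-tests with Benjamini-Hochberg adjustment at an FDR of 0.05 over all genes tested. Tissues and interactions were tested in 1 fit of the 18 libraries. Standard errors were derived from the F statistic. DESeq2 1.42.0, edgeR's exact test, other scalings and filters, a replicate block, a lane block and each library left out were alternatives. The lane fits and the deposited edgeR commands were added after the data were seen. The scripts were tested on simulated data. Symbols matched 82.7% of identifiers.

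Library totals were 2186877 to 6946549 counts, and 3 counts set the floor. Whether replicates came from separate cohorts is not stated beyond their pools, so p-values measure the spread between pools. Eye, anterior and posterior brain may come from the same fish, and the fit of all libraries took them as independent. Same-number anterior and posterior libraries correlated at 0.0512 to 0.143 in wild-type and 0.0653 to 0.103 in opn4 dko. They correlated best with their own number in 3 of 3 cases, as eye and posterior libraries did in both genotypes. For eye and anterior libraries it was 2 of 3. The replicate block joined both genotypes of a number, so it does not model such pools. Libraries of both genotypes with the same number correlated at -0.0251 to 0.0544. They correlated best with their own number in 1 of 3 cases for the eye, 2 for the anterior and 3 for the posterior brain. No gene lengths were used, so levels of different genes, the ranking by abundance, the shares and the chain ratios also reflect gene length.

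Members and lists were chosen with earlier results of these data known. Named genes were the chains of types I, II, IV and VI, the most abundant, the most changed between tissues (5 in each direction) and those with the lowest genotype p. Other collagens named complete a class and were chosen after their values were seen.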

Additional observations from a re-analysis of the deposited data

How the results depend on the processing

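The count of collagens called by genotype in the anterior brain was 0 and became 1 with at least 10 counts in every library, the deposited edgeR commands, DESeq2, the exact test, a replicate block or the sequencing lane as a block (col12a1a in each), 1 with library sizes from actb1 (COL8A1) and 2 with no filter (col12a1a and COL8A1). With 1 library left out it was 0 to 1. In the posterior brain it was 0 and became 1 with no filter (col12a1a). The calls between the brain parts were 15 and became 6 with at least 10 counts in every library, where 17 collagens were tested. They became 6 at an FDR of 0.01, 7 in the shared lane and 8 to 17 with 1 library left out. Wild-type libraries alone called 4 collagens, 3 of them among the 15, and opn4 dko libraries alone called 12, 8 of them among the 15. The calls between eye and brain were 45 and became 16 of 17 tested with at least 10 counts in every library, and 44 to 46 with 1 library left out. They were 37 in wild-type libraries alone and 40 in opn4 dko libraries alone. The stricter filters and subsets held fewer genes or libraries, and the cause of these changes was not tested.

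Replicate numbers were not taken as pairs. With the replicate block the calls were 13 between the brain parts, 44 between eye and brain and 1 in the anterior brain, where the FDR of col12a1a was 0.0329, and wild-type and opn4 dko libraries correlated best with their own number in 1 of 3 cases for the eye, 2 for the anterior and 3 for the posterior brain. With actb1 the log2 fold change of col12a1a in the eye reversed to -0.1556 and the ratio of opn4 dko to wild-type collagen counts in the posterior brain fell from 0.915 to 0.724. With 1 library left out that ratio was 0.8993 to 0.9379 there, 0.9494 to 1.069 in the anterior brain and 0.6656 to 0.9468 in the eye. The mean type I chain ratio was 2.489 in the eye, 2.429 in the anterior and 1.423 in the posterior brain. It was 1.407 in the eye and 0.5695 in the posterior brain with col1a1a alone, and 2.384 to 2.585, 1.914 to 2.843 and 1.326 to 1.483 in eye, anterior and posterior brain with 1 library left out.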
